A study of Mus musculus with 8 samples.

Results

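Serine, one-carbon and asparagine synthesis was followed here through 10 genes, listed by name and each represented by the transcript cluster that the platform annotation assigns to that gene alone. All 10 had such a cluster, out of 19938 genes with one. They are Phgdh, Psat1 and Psph of serine synthesis, Asns of asparagine synthesis, Shmt1 and Mthfd1 of the cytosolic folate cycle, and Shmt2, Mthfd2, Mthfd1l and Aldh1l2 of the mitochondrial one. Their RNA was measured in the corpus callosum, the white matter tract that joins both sides of the brain, on Affymetrix Mouse Gene 1.0 ST arrays. All mice were C57BL/6 wild-type males, 8 weeks old. The 4 control samples came from mice on a normal diet, and the 4 others from mice given cuprizone, a copper chelator that kills oligodendrocytes, at 0.25% for 1 week. The labels call the samples of each diet biological replicates 1 to 4 and do not say whether each is 1 animal. The tissue was dissected by hand and analysed whole, so fewer cells of a type and less RNA per cell cannot be told apart.

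Phgdh, Psat1 and Psph act in sequence to turn a glycolytic intermediate into serine. Shmt enzymes then split serine into glycine and a one-carbon unit carried by folate, in the cytosol (Shmt1) or in mitochondria (Shmt2). In mitochondria Mthfd2 oxidises that unit and Mthfd1l releases it as formate, which Mthfd1 takes up again in the cytosol for purine and thymidylate synthesis, while Aldh1l2 burns it to CO2 and makes NADPH. Asns makes asparagine from aspartate and glutamine. Several of these genes are known targets of ATF4, the transcription factor of the integrated stress response, and in the adult brain serine synthesis is known above all from astrocytes.

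The promoters of 2 members are shown because Asns was the 1 member with a match to the best known ATF4 site and Mthfd2 the member that changed most. That site is the composite element that ATF4 binds with a C/EBP partner, searched as TGATGNAA on both strands in the 250 bases before the RefSeq start (GRCm38.p6). Of the 9 members with a promoter window, 1 held it, which was Asns. Aldh1l2 had no window and was not searched. The element was present in 3.91% of 27025 genes. In the sequences below, written 5′ to 3′, capitals mark the element. In Asns (chr6:7693210-7693459, minus strand) it lay 23 to 16 bases before the start. Mthfd2 (chr6:83317605-83317854, minus strand) had no match in this window.
Asns: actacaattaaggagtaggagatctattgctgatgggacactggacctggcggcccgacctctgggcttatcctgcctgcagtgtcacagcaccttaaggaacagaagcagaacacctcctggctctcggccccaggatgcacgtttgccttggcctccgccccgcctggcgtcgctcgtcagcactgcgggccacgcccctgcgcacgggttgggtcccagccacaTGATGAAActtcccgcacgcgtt
Mthfd2: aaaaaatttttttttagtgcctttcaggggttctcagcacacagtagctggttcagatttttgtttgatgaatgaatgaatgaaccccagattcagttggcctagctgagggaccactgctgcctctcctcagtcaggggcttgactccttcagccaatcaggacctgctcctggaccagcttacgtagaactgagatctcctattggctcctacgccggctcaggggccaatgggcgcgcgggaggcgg

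After 1 week of cuprizone 2 of the 10 genes had risen, Mthfd2 and Aldh1l2, and none had fallen. The threshold was an adjusted p under 0.05 in a limma model fitted to all 23410 gene-named clusters, of which 4.71% were called higher, 3.52% lower and 8.22% either way. The groups did not overlap in 5 members, all higher with cuprizone, against 8.24% of all clusters apart in that direction, 7.09% apart in the lower one and 15.3% in either. These were the 4 mitochondrial genes and Psph. An unadjusted limma p under 0.05 was reached by 5 members, against 20.8% of all clusters. The median log2 fold change of the 10 members was 0.11, and that of all clusters -0.01. Every difference was small, the largest being 0.45 on the log2 scale.

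**Figure D1:**
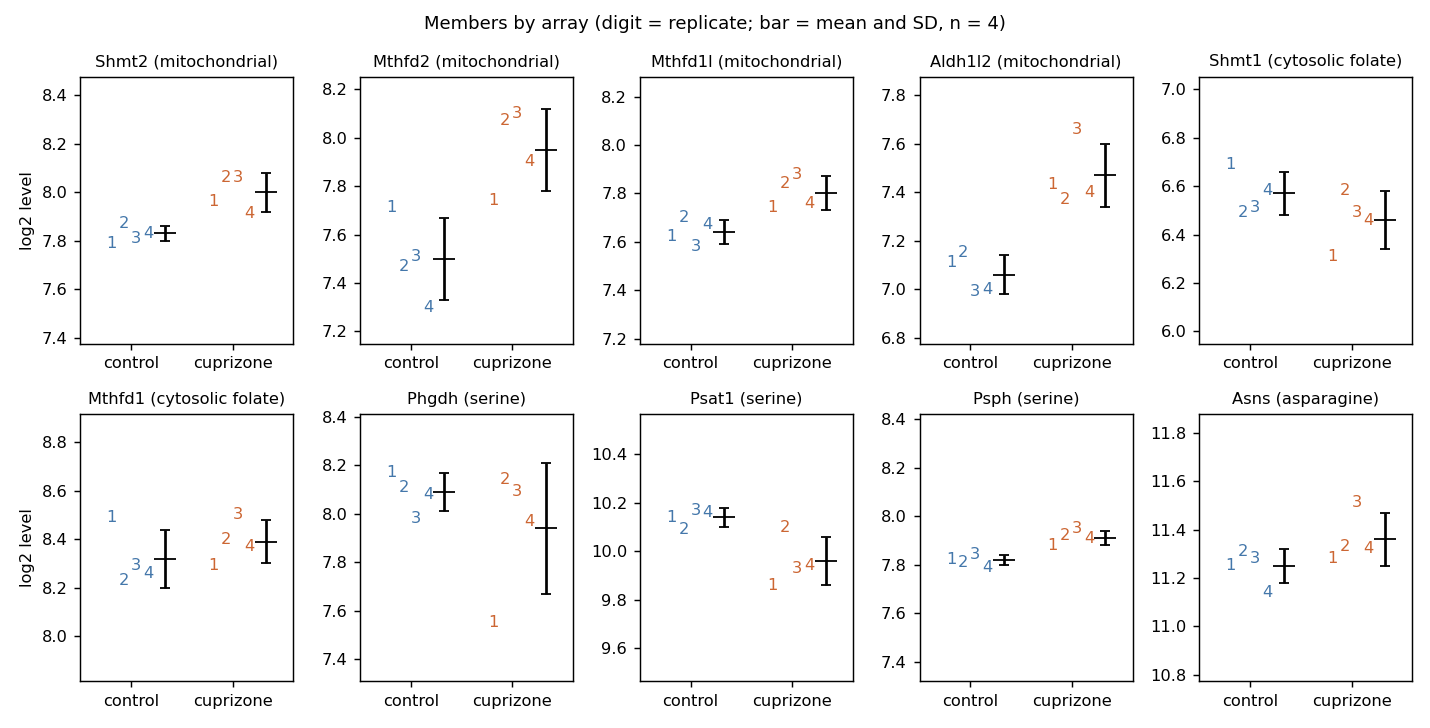
Log2 level of each of the 10 members on every array (vertical axes of equal span), with digits for the replicate and bars for the mean and SD of 4 arrays. The groups are apart for Shmt2, Mthfd2, Mthfd1l, Aldh1l2 and Psph, and cuprizone replicate 1 is the lowest of its group in 8 of the 10 panels.

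Before the genes are taken in turn, the arrays need a description. The median log2 level of the tested clusters lay between 7.44 and 7.49 on the 8 arrays. Replicate 2 of each group lay nearest to the opposite group on the first principal component. Cuprizone replicate 2 scored 8.73 where the rest of its group scored 16.5 to 22.5, and control replicate 2 scored -13.2 where the other controls scored -18.6 to -18.1. All 9 measured oligodendrocyte markers fell and 7 of 9 microglial markers rose. None of 9 neuronal, 7 vascular, 6 oligodendrocyte progenitor and 7 blood leukocyte markers passed the limma threshold given above. The summed linear level of the 9 neuronal markers was 34069 to 36742 on the controls, and that of the 9 oligodendrocyte markers 18640 to 22333. The samples thus held neuronal RNA, although array levels of different genes do not give its share. How much tissue from outside the tract was dissected with it was not tested.

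Of the mitochondrial genes, Mthfd2 (transcript cluster 10545672), the NAD-dependent dehydrogenase and cyclohydrolase that is best known from embryonic and dividing cells, changed most. Its log2 level was 7.71, 7.47, 7.51 and 7.30 in control replicates 1 to 4 and 7.74, 8.07, 8.10 and 7.90 in cuprizone replicates 1 to 4. The groups were apart, but only just, since the highest control stood at 7.71 and the lowest cuprizone array at 7.74. The mean rose from 7.50 ± 0.17 to 7.95 ± 0.17 (SD, n = 4 each), or 1.37-fold. On the log2 scale the difference was 0.45 ± 0.10 (SE, adjusted p = 0.0161 in limma). Without cuprizone replicate 3 the adjusted p in limma was 0.0543, and without replicate 2 of both groups it was 0.0924, so the call depends on which arrays are included. Over all 17 other settings it ranged from 0.00817 to 0.0924.

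Aldh1l2 (cluster 10371332), the mitochondrial formyltetrahydrofolate dehydrogenase, was the more stable of the 2 called genes. Control replicates 1 to 4 stood at 7.11, 7.15, 6.99 and 7.00, and cuprizone replicates 1 to 4 at 7.43, 7.37, 7.66 and 7.40. Every cuprizone array lay above every control, with cuprizone replicate 3 the highest. The mean rose from 7.06 ± 0.08 to 7.47 ± 0.13 (SD, n = 4 each), or 1.32-fold. On the log2 scale the difference was 0.40 ± 0.07 (SE, adjusted p = 0.00568 in limma). In the 16 other settings that tested it, the adjusted p lay between 0.00351 and 0.0269. It was not tested among clusters brighter than the median cluster, and neither was Shmt1, since both were dimmer than that.

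Shmt2 (cluster 10373202), the mitochondrial serine hydroxymethyltransferase, stood at 7.79, 7.87, 7.81 and 7.83 in the controls and 7.96, 8.06, 8.06 and 7.91 with cuprizone. Mthfd1l (cluster 10367641), the mitochondrial formate-releasing synthetase, stood at 7.62, 7.70, 7.58 and 7.67 in the controls and at 7.74, 7.84, 7.88 and 7.76 with cuprizone. In both genes the 2 groups were apart, and neither passed the threshold over all clusters. The log2 fold change was 0.17 ± 0.06 for Shmt2 (limma adjusted p = 0.0967) and 0.16 ± 0.06 for Mthfd1l (limma adjusted p = 0.123). Their 95% confidence intervals ran from 0.05 to 0.29 and from 0.03 to 0.28, which leaves at most 1.23-fold and 1.22-fold. Shmt2 was called at an adjusted p of 0.0429 in limma when only clusters brighter than the median cluster were tested.

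The cytosolic members Shmt1 and Mthfd1 did not separate the groups. Shmt1 (cluster 10386604), the cytosolic hydroxymethyltransferase, stood at 6.69, 6.49, 6.51 and 6.58 in the controls and at 6.31, 6.58, 6.49 and 6.46 with cuprizone. Mthfd1 (cluster 10396610), the cytosolic enzyme that carries dehydrogenase, cyclohydrolase and synthetase activities in 1 protein, stood at 8.49, 8.23, 8.29 and 8.26 and at 8.29, 8.40, 8.50 and 8.37. The groups overlapped in both. The log2 fold change was -0.11 ± 0.07 for Shmt1 (limma adjusted p = 0.457) and for Mthfd1 0.07 ± 0.07 (limma adjusted p = 0.648), with 95% confidence intervals of -0.27 to 0.05 and -0.09 to 0.23.

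**Figure D2:**
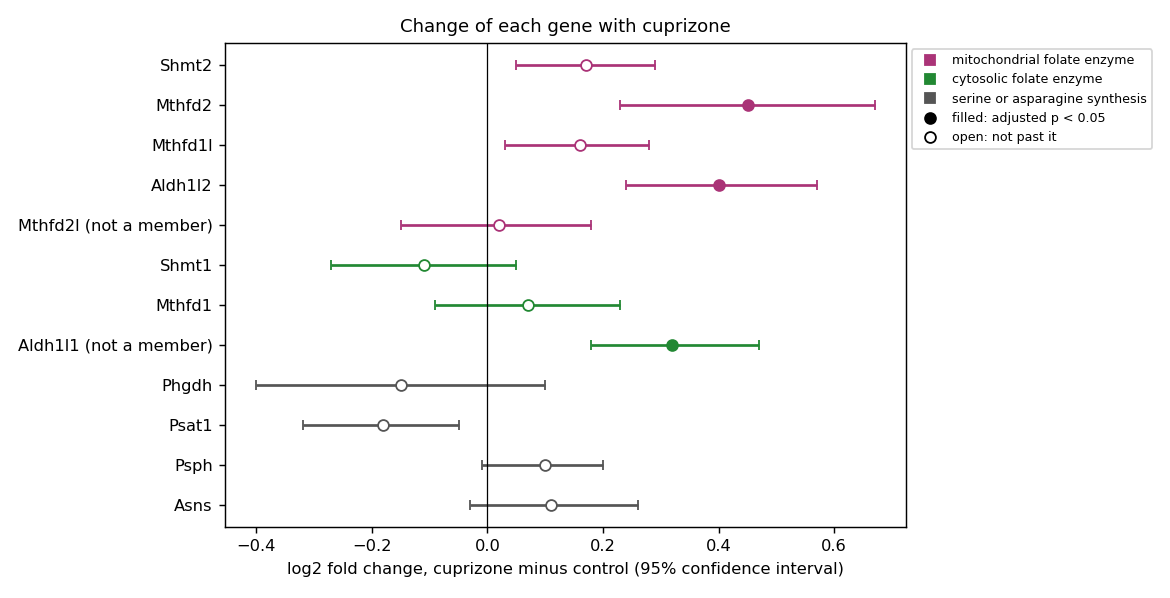
Log2 fold change of each member, and of Aldh1l1 and Mthfd2l for comparison, with the 95% confidence interval of the limma fit over 4 against 4 arrays. Filled points passed an adjusted p of 0.05. The intervals of all 4 mitochondrial members lie above 0, and Aldh1l1 at 0.32 is the cytosolic enzyme that was called.

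Whether the mitochondrial enzymes responded more than the cytosolic ones was asked within each array, by subtracting the log2 level of the cytosolic gene from that of its mitochondrial counterpart and comparing the groups with an exact two-sided permutation test. Of 70 assignments the smallest p is 0.0286, and p was adjusted over the 4 pairs. Mthfd2 was higher relative to Mthfd1 by 0.38 ± 0.06 (SE), with all 4 cuprizone arrays (0.27 to 0.49) above all controls (-0.14 to 0.06), and Shmt2 relative to Shmt1 by 0.28 ± 0.07, also with all 4 cuprizone arrays (0.19 to 0.39) above the controls (-0.15 to 0.12). Both reached the smallest possible exact p, 0.0286, and an adjusted exact p of 0.0571, which misses 0.05. Mthfd1l differed from Mthfd1 by 0.09 ± 0.08 (exact permutation p = 0.343, adjusted 0.457), with overlapping groups.

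In the last pair both genes rose. Aldh1l1, the cytosolic relative of Aldh1l2 and a widely used astrocyte marker, stood at 8.76, 8.74, 8.66 and 8.66 in the controls and at 8.89 to 9.16 with cuprizone. It rose by 0.32 ± 0.07 (limma adjusted p = 0.0106), with every cuprizone array above every control. The difference of Aldh1l2 from Aldh1l1 was 0.08 ± 0.10 (exact permutation p = 0.457, adjusted 0.457), and ranged from -0.14 to 0.30 on the cuprizone arrays. Mthfd2l, the mitochondrial isoenzyme of Mthfd2 that adult tissue is known to use, was at 0.02 ± 0.07 (limma adjusted p = 0.935), with a 95% confidence interval up to a 1.13-fold increase. The 4 mitochondrial members together stood 0.21, 0.33, 0.42 and 0.23 above the control mean on cuprizone replicates 1 to 4, and the 2 cytosolic folate members at -0.15, 0.05, 0.05 and -0.03. The difference of these means was 0.26 to 0.36 on the cuprizone arrays and -0.09 to 0.12 on the controls, with a mean of 0.31 on the cuprizone arrays. With Aldh1l1 added to the cytosolic genes, a choice made after seeing the data, that mean was 0.20, with 0.13 to 0.28 on the cuprizone arrays and -0.06 to 0.08 on the controls. Mthfd2l, at 0.02, is mitochondrial but not a member, and none of these means includes it. The difference thus depends on which related enzymes are counted.

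**Figure D3:**
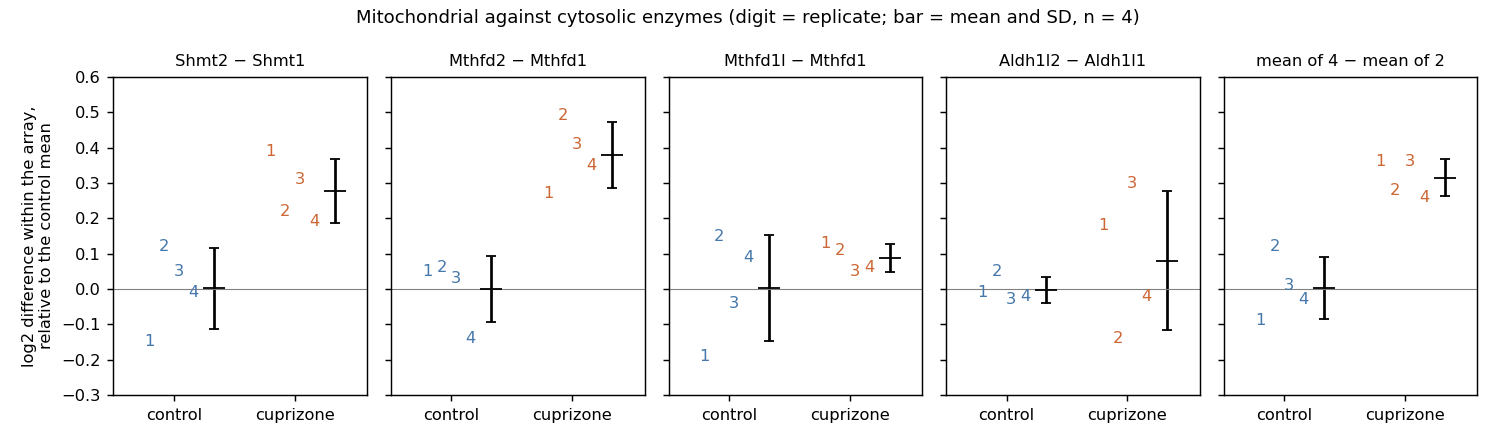
Difference between a mitochondrial gene and its cytosolic counterpart on each array (log2, relative to the control mean), and, at the right, between the mean of the 4 mitochondrial and of the 2 cytosolic folate members. Digits are replicates, bars the mean and SD of 4 arrays. The groups are apart for Shmt2 against Shmt1 and Mthfd2 against Mthfd1, and overlap in the other 2 pairs.

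The 3 genes of serine synthesis did not move as a unit. Phgdh (cluster 10500529), which catalyses the first step, stood at 8.17, 8.11, 7.98 and 8.08 in the controls and at 7.55, 8.14, 8.09 and 7.97 with cuprizone, so 3 cuprizone arrays lay at the control level or near it and replicate 1 far below. The log2 fold change was -0.15 ± 0.11 (limma adjusted p = 0.533), and -0.02 without cuprizone replicate 1. Psat1 (cluster 10466410), the aminotransferase of the second step, stood at 10.14, 10.09, 10.17 and 10.16 and at 9.86, 10.10, 9.93 and 9.94. Here 3 cuprizone arrays were below every control and replicate 2 was within their range.

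The log2 fold change of Psat1 was -0.18 ± 0.06 (limma adjusted p = 0.103). Without cuprizone replicate 2 it was -0.23 and passed, at a limma adjusted p of 0.0365, and it passed at 0.0499 among clusters brighter than the median cluster. Psph (cluster 10534075), the phosphatase of the last step, stood at 7.82, 7.81, 7.84 and 7.79 in the controls and at 7.88, 7.92, 7.95 and 7.91 with cuprizone. These groups were apart, yet by so little that the log2 fold change of 0.10 ± 0.05 did not pass (limma adjusted p = 0.286).

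Asns (cluster 10543067), the gene whose promoter holds the element printed above, stood at 11.25, 11.31, 11.28 and 11.14 in the controls and at 11.28, 11.33, 11.51 and 11.32 with cuprizone. Cuprizone replicate 3 was the highest array, and the other 3 lay within the control range or just above it. The log2 fold change was 0.11 ± 0.07 (limma adjusted p = 0.383), and its 95% confidence interval of -0.03 to 0.26 allows at most a 1.20-fold increase.

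Of 14 measured genes listed as the ATF4 axis 10 rose and none fell, where 4.71% of all clusters were higher and 3.52% lower. Their median log2 fold change was 0.49, against -0.01 over all clusters. The list was chosen with earlier results of these data known, so these values describe it and test nothing. Among the 10 were Myc and the eIF2alpha kinase gene Eif2ak2, which rose by 1.33 ± 0.27 (limma adjusted p = 0.0118) with 6.82 to 8.41 on the cuprizone arrays. The other kinase genes Eif2ak1 (-0.06), Eif2ak3 (0.04) and Eif2ak4 (0.01) did not pass. Atf4 itself rose from 8.20 ± 0.10 to 8.55 ± 0.13 (SD, n = 4 each), which is 0.35 ± 0.08 on the log2 scale (adjusted p = 0.0171 in limma, and 0.0555 and 0.0575 without control replicate 1 or 4). Ddit3, which encodes CHOP, rose by 1.09 ± 0.13, and the partner factor Cebpg by 0.60 ± 0.05. Atf5, a stress factor downstream of eIF2alpha, rose by 1.22 ± 0.06. Myc, a growth regulator that is also known to drive serine and folate enzymes, rose by 1.30 ± 0.15. The composite element was found before 4 (5.19%) of the 77 other pathway genes with a window, which were Atf3, Got1, Prps1 and Pycr1, named here for the match and not for their values. Atf3 rose by 2.71 ± 0.36, whereas the aminotransferase Got1 was at 0.01 ± 0.07 and the phosphoribosyl pyrophosphate synthetase Prps1 at 0.07 ± 0.08. Pycr1 was not analysed here.

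Around the members, 84 of 98 listed genes of neighbouring pathways were measured, the ATF4 axis included. Of these 16 rose, 10 of them in the ATF4 axis, and 3 fell. Over all clusters 4.71% were higher and 3.52% lower. Of the 11 other folate genes measured, Aldh1l1 alone passed. Of 11 genes of glycine cleavage and of serine or glycine breakdown, 1 rose and none fell. It was Sardh, the mitochondrial sarcosine dehydrogenase that hands a one-carbon unit to folate, at 0.30 ± 0.05 (limma adjusted p = 0.00403). Sardh stood at 7.27 to 7.37 on the controls and at 7.59 to 7.68 with cuprizone. Of 12 genes of the methionine cycle and transsulfuration, 1 rose, Cth, which releases cysteine from cystathionine, at 0.48 ± 0.11 (limma adjusted p = 0.0195), although its groups overlapped. The call of Cth was lost when any 1 of control replicates 1, 3 and 4 and cuprizone replicates 1 and 3 was left out, at adjusted p of 0.0553 to 0.0648 in limma.

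None of 12 genes of purine nucleotide and thymidylate synthesis passed, and their median log2 fold change was 0.02. The genes among them whose enzymes use a folate-borne one-carbon unit are Gart (0.04 ± 0.06) and Atic (0.09 ± 0.08) of purine synthesis and Tyms, thymidylate synthase, and the groups overlapped in each. The 2 with the smallest p were Impdh1 of guanine nucleotide synthesis, at -0.18 ± 0.05 (limma adjusted p = 0.0594), and Tyms, at -0.22 ± 0.09 (limma adjusted p = 0.183). Impdh1 passed under 3 other settings, at 0.0233 to 0.0418. Of 9 measured proliferation markers 2 fell, Top2a (-0.53 ± 0.08) and Rrm2 (-0.53 ± 0.10), and none rose.

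Among 13 transporters of serine, glycine, asparagine and related amino acids 2 rose and 1 fell. Slc1a5, a carrier of glutamine and other neutral amino acids, rose by 0.62 ± 0.10 (limma adjusted p = 0.00324), from 6.38 to 6.66 on the controls to 6.95 to 7.39 with cuprizone. Slc1a4, a carrier of serine, rose by 0.31 ± 0.08 (limma adjusted p = 0.0307), a call lost without any 1 of control replicates 3 and 4 and cuprizone replicates 2 and 3, at 0.0762 to 0.0886, and without replicate 2 of both groups, at 0.0563. Slc7a10, an exchanger of glycine and D-serine, fell by 0.80 ± 0.12 (limma adjusted p = 0.00133), with all cuprizone arrays (8.37 to 9.03) below all controls (9.37 to 9.55).

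Of 11 measured enzymes of aspartate, glutamine, glutamate and proline, 1 rose and 2 fell. Aldh18a1, which makes the proline precursor in mitochondria, rose by 0.49 ± 0.07 (limma adjusted p = 0.000985). Glutamine synthetase, Glul, the enzyme that makes the nitrogen donor of Asns, fell by 0.49 ± 0.06 (limma adjusted p = 0.000616). Prodh, which breaks proline down, fell by 0.31 ± 0.07 (limma adjusted p = 0.0264), but not past the threshold when any 1 of 6 arrays was left out, at 0.0565 to 0.0768.

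**Figure D4:**
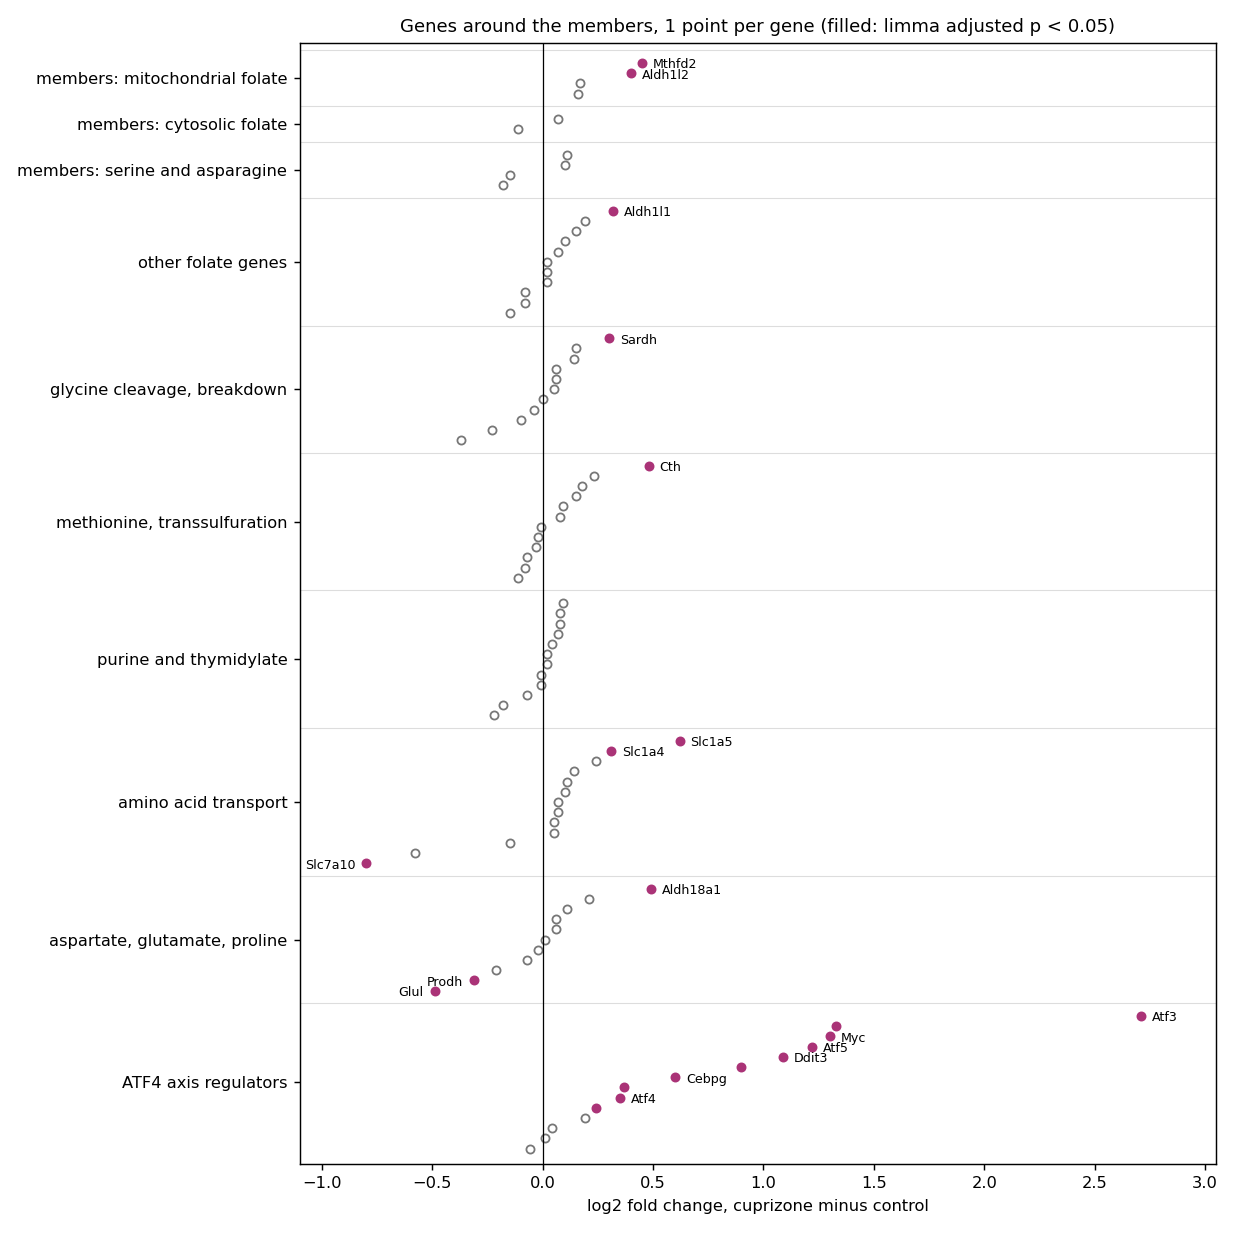
Log2 fold change of every measured gene of the member groups and of the neighbouring pathway lists, 1 point per gene. Filled points passed a limma adjusted p of 0.05, and those the text names, except Eif2ak2, carry their symbol. In the ATF4 axis 10 of 14 genes rose, and each other list has at most 2 genes called higher and 2 called lower. Over all clusters 4.71% were called higher and 3.52% lower. The lists were chosen with earlier results of these data known.

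The members' levels also differed between the cuprizone arrays. Replicate 3 was the highest cuprizone array for 6 members, among them Mthfd2, Mthfd1l, Aldh1l2 and Asns, and replicate 1 the lowest for 8. Replicate 3 was also the highest on the mean of the ATF4 axis (0.91 above the control mean, against 0.53 to 0.84), of the microglial markers (0.88, against 0.52 to 0.63) and of the reactive astrocyte markers (1.40, against 1.10 to 1.34). In all, 4 of the 9 marker lists were highest on replicate 3. The lowest cuprizone arrays were not all the same. Mthfd2 was lowest on replicate 1 (7.74) and second highest on replicate 2 (8.07), and Aldh1l2 was lowest on replicate 2 (7.37). The ATF4 axis and the reactive astrocyte mean were lowest on replicate 2 (0.53 and 1.10) and second highest on replicate 1 (0.84 and 1.34). The summed linear level of the 9 microglial markers was 3079 to 3382 on the controls and 4962 to 6526 with cuprizone, and that of the 8 reactive astrocyte markers 2791 to 4006 and 8618 to 10100. The part of either in the rise of Mthfd2 and Aldh1l2 was not tested.

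Phgdh and Psat1 were lowest on cuprizone replicate 1 and highest of that group on replicate 2. The means of 4 of the 9 marker lists had their extremes on the same arrays, and 6 lists were lowest on replicate 1. The mature oligodendrocyte mean stood at -2.99, -2.06, -2.31 and -2.51 on cuprizone replicates 1 to 4, the proliferation mean at -0.34, -0.18, -0.25 and -0.24, the astrocyte mean at -0.33, 0.03, -0.16 and -0.27, and the vascular mean at -0.09, -0.01, -0.02 and -0.06. Of the 10 astrocyte markers 3 fell, Slc1a2 (-0.60 ± 0.07), Ntsr2 (-0.62 ± 0.14) and Gja1 (-0.43), and 1 rose, Slc1a3 (0.32), with Gja1 and Slc1a3 named after their values were seen. The call of Ntsr2 was lost without control replicate 1 or cuprizone replicate 4, at adjusted p of 0.0566 and 0.0541 in limma. The summed linear level of the astrocyte markers was 17771 to 19532 on the controls and 15505 to 18482 with cuprizone, and that of the 9 oligodendrocyte markers 18640 to 22333 and 3106 to 5600. The part of any of these lists in the values of Phgdh and Psat1 was not tested. Aldh1l1 rose between the groups, and among the cuprizone arrays it too was lowest on replicate 1 (8.89) and highest on replicate 2 (9.16). Of 8 reactive astrocyte markers 6 rose and none fell, with a median log2 fold change of 1.35. Their part in the values of Phgdh and Psat1 was not tested either.

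**Figure D5:**
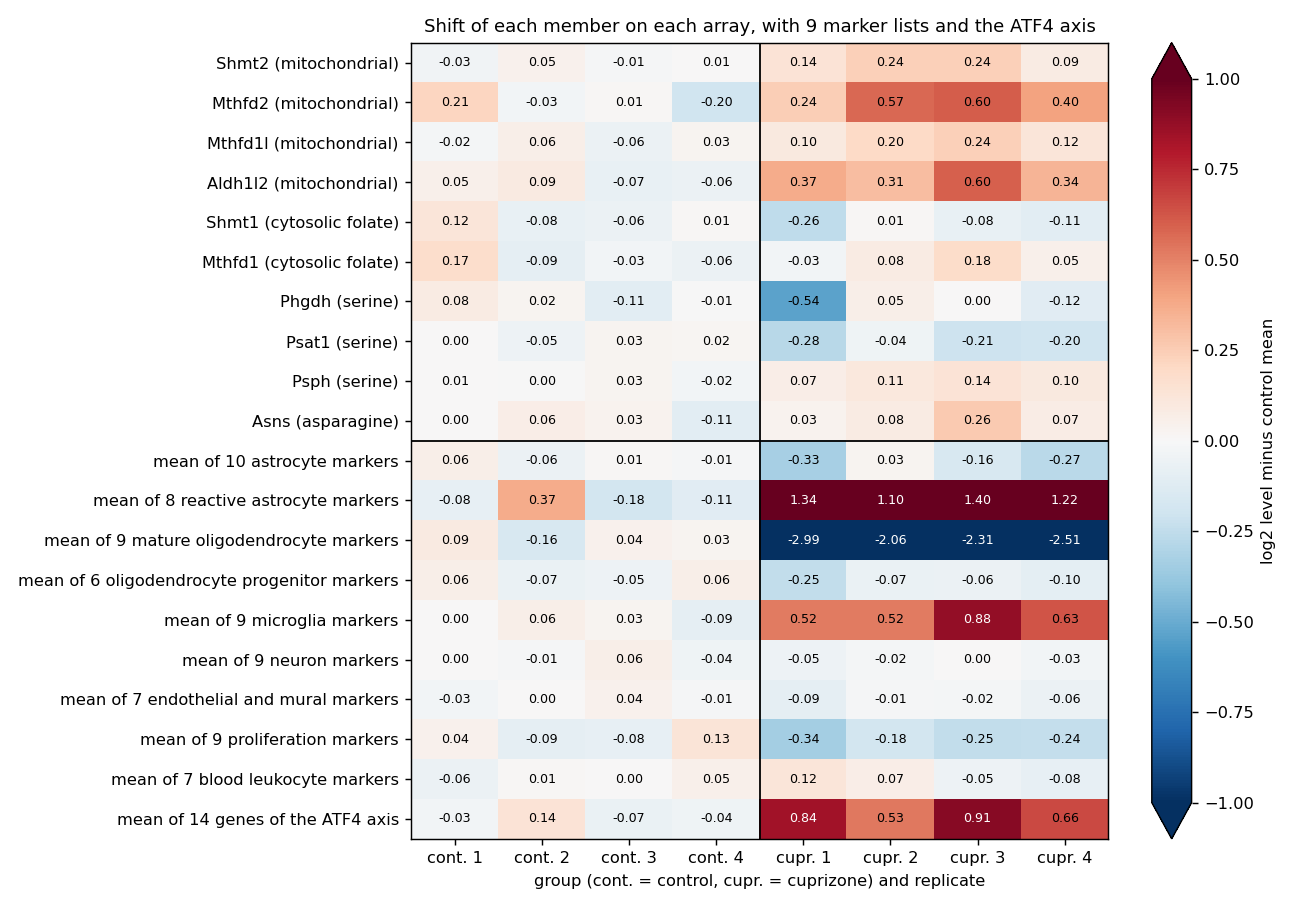
Log2 level of each member on each array minus the control mean, with the means of the 9 marker lists and of the ATF4 axis below the line. Red is higher and blue lower than the control mean, and the colours end at 1 and -1. Mthfd2 and Aldh1l2 are highest on cuprizone replicate 3, as are the ATF4 axis and 4 marker lists. Of the cuprizone arrays, Mthfd2 is lowest on replicate 1, whereas Aldh1l2 and the ATF4 axis are lowest on replicate 2. Phgdh and Psat1 are lowest on replicate 1, as are 6 marker lists.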

How the data were processed

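Total RNA (150 ng per sample) was amplified, labelled and hybridised to 1 array per sample, per the labels' protocols. The values the authors deposited are log2 levels. Named in the submitters' processing notes are Affymetrix Expression Console, RMA and Transcriptome Analysis Console, with versions and roles not given in the sources used here. RMA brings arrays to nearly the same distribution, which hides a shift shared by most transcripts and compresses large folds. No batch could be tested without scan dates, which were not used here. Precision is limited by having 4 arrays per group.

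Of 28944 clusters, the 23410 with at least 1 gene symbol in the supplied platform annotation were tested with limma (version 3.58.1, R 4.3.3) at default settings, two-sided, with no covariate, and p-values were adjusted by Benjamini-Hochberg over all of them. Confidence intervals of 95% come from that model. A second Phgdh cluster, shared in the annotation with another gene, was left out. The members and lists were chosen with earlier results of these data known. Named beside the members were, per pathway list, up to 4 genes past the threshold or else the 2 with the smallest p, up to 2 per marker list, and Aldh1l1, Mthfd2l, Atf4 and Ddit3. Outside this rule, Eif2ak1, Eif2ak2, Eif2ak3, Eif2ak4, Gart, Atic, Gja1 and Slc1a3 were named too. Atf3, Got1, Prps1 and Pycr1 were named for the promoter match. Of 187 listed genes 168 were measured, and the other 19 were not analysed here. The scripts were tested on simulated data. Alternatives were single arrays left out, a replicate block, an intensity trend with robust prior, other scalings, a filter on dim clusters, other sets of clusters and array weights. Promoter sequences are RefSeq's.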

Additional observations from a re-analysis of the deposited data

Results flagged for a closer look

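In 104 groups of 4 arrays checked, for the genes named and the pair differences, 2 values lay far from the rest of their group by Dixon's ratio at the 95% level, where chance gives about 1 in 20 groups. Control replicate 4 stood at -0.14 for Mthfd2 relative to Mthfd1, against 0.03 to 0.06 on the other controls. Control replicate 2 stood at 8.68 for Atf3, against 6.96 to 7.21 on the other controls.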

How the results depend on the processing

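The count of members that rose was 1 to 2 and of those that fell 0 to 1 when single arrays were left out. Mthfd2 dropped out without cuprizone replicate 3, and without replicate 2 of both groups, a setting chosen after seeing the data, which left 1 riser. Psat1 was counted as fallen without cuprizone replicate 2, and among the clusters brighter than the median cluster, where 8 members were tested and 1 fell. Over all clusters 795 to 1122 were higher and 609 to 741 lower when single arrays were left out. The values showed no pairing of the arrays by replicate number, although they cannot exclude one. The deviations of same-numbered arrays correlated at -0.186 to 0.21, and 1 of 4 control arrays correlated best with its own number. With the replicate number as a block, 892 clusters were higher and 636 lower, 2 members rose and 0 fell, with Mthfd2 at an adjusted p of 0.0445 in limma. For the 4 gene pairs that block gave exact sign-flip tests with adjusted p of 0.25 to 0.75, which over 4 pairs of arrays cannot reach 0.05. Leaving out single arrays, Mthfd2 against Mthfd1 ranged from 0.34 to 0.42, Shmt2 against Shmt1 from 0.23 to 0.32, Mthfd1l against Mthfd1 from 0.02 to 0.14, Aldh1l2 against Aldh1l1 from 0.01 to 0.15, and the mean of the mitochondrial minus that of the cytosolic folate genes from 0.28 to 0.36. With Aldh1l1 among the cytosolic genes, added after seeing the data, this last difference was 0.20 in place of 0.31, since that gene rose by 0.32. With 3 against 4 arrays the exact test cannot go below 0.0571. With each array centred on its median, 1 member, Psat1, had groups apart in the lower direction. A second cluster per gene was not run, since 0 of these genes had over 1 single-gene cluster.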
